A study of Sus scrofa with 21 samples.

Results

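Integrins are the receptors that hold a cell to its matrix, and integrin-linked kinase (ILK) and zyxin (ZYX) are proteins of the focal adhesions that form around them. Transcripts of 7 such genes were followed in the infarcted pig heart: the alpha subunits ITGA2B, ITGA5 and ITGAV, the beta subunits ITGB1 and ITGB2, and the partners ILK and ZYX. All probe sets carrying one of these names were taken, which gave 8 of the 24123 probe sets on the array. Of the 8, 7 were above a log2 value of 3 in at least 10 of 21 arrays and were tested among 12180 probe sets. The platform's annotation names 6 of them, including a second ITGA5 probe set, the one that did not pass. The probe sets of ILK and ZYX carry no platform symbol and were found through the authors' match to human genes, which is held only for probe sets in their lists of regulated transcripts.

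The sample labels describe all animals as female Landrace x Large White pigs. Myocardial infarction (MI) was made by a double ligation of a marginal branch, the first, of the circumflex coronary artery. For the infarcted pigs the study's methods describe anesthesia and analgesia with azaperone, pentobarbital, isoflurane and fentanyl, the muscle relaxant atracurium, and after surgery an antibiotic (tulathromycin) and a fentanyl patch. Such treatment of the control pigs is not given in the sources used here, so that infarct and treatment cannot be told apart. Infarct core (IC), taken from the left ventricular scar, and remote myocardium (RM), taken from the septum, were sampled from the same animals in pigs 7, 8 and 9 at 1 week, in pigs 18, 20 and 22 at 4 weeks and in pigs 2, 3 and 5 at 6 weeks post-MI. These stages are days 6, 30 and 45 in the sample labels. Control myocardium (CM) came from pigs 30, 31 and 33, which the labels call sham-operated, at day 0, and the study's text calls healthy. Each group therefore held 3 pigs, with 1 array per sample, and ages were not given in the sources used here. The 3 groups of each region were set against CM to ask what differed after infarction, and against each other to ask what changed with time. IC was also set against RM of the same pig. The site from which CM was taken is not given in the sources used here. Site in the heart and infarct therefore cannot be told apart in IC against RM, nor in either region against CM.

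An integrin is a pair of 1 alpha and 1 beta subunit that spans the membrane. Outside the cell it binds matrix proteins such as fibronectin, and inside it is coupled through talin, ILK and parvin to actin, with zyxin joining adhesions and actin fibers that are under tension. ITGB1 serves many cell types, including cardiomyocytes and fibroblasts, ITGB2 is the beta subunit of leukocytes, ITGAV pairs with several beta subunits and can activate latent TGF-beta, ITGA5 pairs with ITGB1 as a fibronectin receptor, and ITGA2B pairs with ITGB3 on platelets.

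Values are log2 expression, so a difference of 1 is a doubling, and levels of different probe sets are not comparable. Transcripts were tested with limma, and a change was called at a Benjamini-Hochberg adjusted p under 0.05 over all tested probe sets. Whole tissue was hybridized, so fewer cells of a type and less RNA per cell cannot be told apart. The tissue label held, since the mean of 14 cardiomyocyte markers was between 11.63 and 11.74 in every CM and RM array, and between 10.29 and 11.41 in IC. The mean of 12 fibroblast markers was between 5.72 and 6.37 in CM and RM and between 7.98 and 8.74 in IC, and 13 leukocyte markers averaged 4.43 to 5.30 in CM and RM and 5.73 to 7.73 in IC. Labelling control spikes averaged 4.45 to 4.88 in CM, 3.44 to 5.12 in IC at 1 week and 5.41 to 5.92 in IC at 4 weeks. The 3' signal of actin exceeded its 5' signal by 1.51 to 1.64 in CM, 1.04 to 1.07 in RM at 4 weeks and 1.99 to 2.62 in IC at 6 weeks. For GAPDH the excess went the other way in IC. It was 0.62 to 0.71 in CM, 0.06 to 0.41 in IC at 4 weeks and 0.36 to 0.51 in IC at 6 weeks. The part of these differences in the results was not tested.

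In IC, ITGB1 and ITGB2 were higher than in CM at all 3 stages, ZYX was higher and ITGA5 was lower. At 1 week, 3 of the 7 tested probe sets were called higher and 1 lower, where 26% and 28.2% of all tested probe sets were called in those directions. The count of higher members includes ZYX, which was found through the list of that comparison, and ITGB2, which passed the filter only through IC. At 4 weeks the counts were 4 higher and 2 lower, beside 25.3% and 29.1% of all probe sets. At 6 weeks they were again 3 higher and 1 lower, beside 21% and 26%. The median log2 fold change (FC) of the 7 was 0.29, 0.72 and 0.44 at the 3 stages, where that of all tested probe sets was -0.06, -0.06 and -0.08. Nothing particular to the 7 is read from these counts. In RM, 0 of the 5 platform-named probe sets were called at any stage, beside 1.13%, 1.08% and 0.197% of all probe sets at 1, 4 and 6 weeks. At an unadjusted p under 0.05 limma also gave 0 of the 5, where 14.2%, 16.7% and 12.5% of all probe sets passed.

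**Figure D1:**
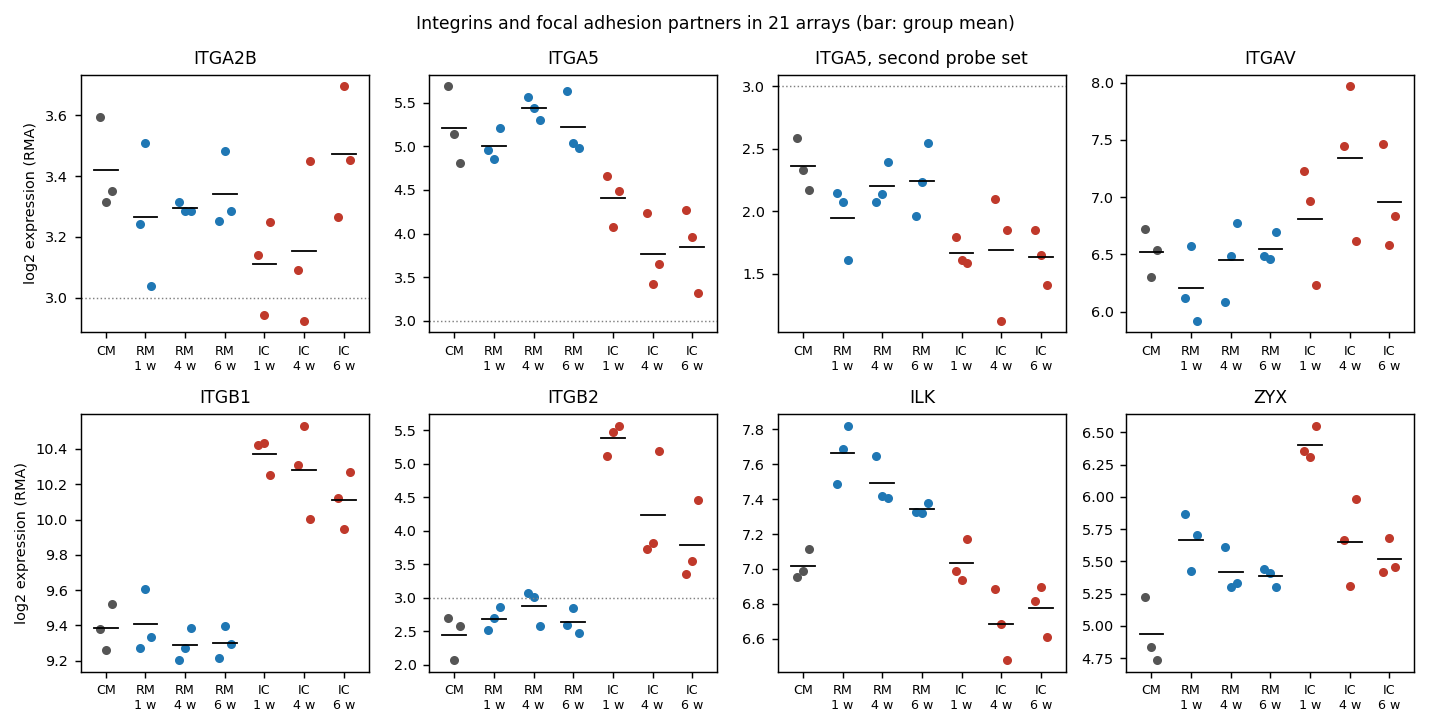
Log2 expression of the 8 probe sets (y axis, a separate scale in each panel) in the 21 arrays by group (x axis: CM, RM and IC at 1, 4 and 6 weeks). Each point is 1 pig, the bar is the group mean of 3 pigs and the dotted line marks 3, the level of the filter. The 9 IC arrays of ITGB1 and ITGB2 sit above every CM and RM array, and those of ITGA5 sit below every one of them.

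ITGB1, the common beta subunit, was higher in the IC samples than in CM and RM at all 3 stages. In CM its 3 arrays read 9.38, 9.26 and 9.52. In RM it read 9.27, 9.61 and 9.34 at 1 week, 9.20, 9.27 and 9.39 at 4 weeks, and 9.22, 9.40 and 9.29 at 6 weeks. In IC it read 10.42, 10.43 and 10.25 at 1 week, 10.31, 10.53 and 10.01 at 4 weeks, and 10.12, 9.95 and 10.27 at 6 weeks. The lowest IC array lay above the highest CM or RM array, while the 4 groups of CM and RM overlapped. Against CM the log2 FC was 0.98, 0.89 and 0.72 (SE 0.14; limma adjusted p = 1.61e-05, 4.16e-05 and 5.21e-04), a 1.98-fold, 1.86-fold and 1.65-fold higher level. The order of the IC means followed time, from 10.37 to 10.28 and 10.11, but neighbouring stages overlapped and neither later stage differed from 1 week by the test (log2 FC -0.09 and -0.26, adjusted p = 0.726 and 0.231). In RM the log2 FC against CM was 0.02, -0.10 and -0.09, with 95% intervals that together ran from -0.40 to 0.32.

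ITGB2, the leukocyte beta subunit, was far higher in IC than elsewhere and was highest early. The 3 CM arrays read 2.69, 2.07 and 2.58. The RM arrays read 2.52, 2.69 and 2.86 at 1 week, 3.06, 3.00 and 2.58 at 4 weeks, and 2.59, 2.85 and 2.47 at 6 weeks. IC arrays read 5.12, 5.47 and 5.57 at 1 week, 3.73, 3.81 and 5.19 at 4 weeks, and 3.36, 3.54 and 4.46 at 6 weeks. Every IC array lay above every CM and RM array, and within IC the 1-week arrays overlapped with those of 4 weeks through pig 22 alone and not with those of 6 weeks. The log2 FC against CM was 2.94 at 1 week, 1.79 at 4 weeks and 1.34 at 6 weeks (SE 0.32; limma adjusted p = 8.52e-07, 1.54e-04 and 2.74e-03). Because the CM and RM means were below 3, close to background, the size of these changes is not exact. Of the 21 arrays 11 were above 3, 9 of them from IC, so that the probe set could pass the filter only by being high in IC. With no filter, where passing does not depend on IC, the adjusted p was 1.26e-06, 2.37e-04 and 4.08e-03.

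The level of ITGB2 in IC fell by 1.15 from 1 to 4 weeks and by 1.60 from 1 to 6 weeks on the log2 scale (limma adjusted p = 0.0303 and 0.0039). With no filter the limma adjusted p was 0.0364 and 0.00419. From 4 to 6 weeks the log2 FC was -0.46 (adjusted p = 0.466). Of the 7 probe sets, 2 were called lower at 4 weeks than at 1 week, 2 at 6 weeks than at 1 week, and 0 at 6 weeks than at 4 weeks, where limma at an unadjusted p under 0.05 also gave 0, beside 19.5% of all probe sets. The share of all probe sets called in these comparisons was 11.9%, 15.7% and 3.88%. Both decreases were those of ITGB2 and ZYX. ITGB2 passed the filter only through IC, and a list naming ZYX used the IC arrays of 1 week. The counts of lower members are not independent of those choices. The 4-week decrease of ITGB2 was not called without pig 8 or 9 of the 1-week group (-1.10 and -1.05) or without pig 18 or 20 of the 4-week group (-0.89 and -0.93).

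Leukocyte markers were also higher in IC than in CM and RM, and within IC at 4 and 6 weeks the pigs with high markers had high ITGB2. Of 25 listed markers 13 were tested. All 13 were called higher in IC than in CM at 1 and 4 weeks and 11 of 13 at 6 weeks, beside 26%, 25.3% and 21% of all probe sets. Markers high in IC could pass the filter more easily, so these counts are not independent of high IC values. Their mean was 7.54, 7.73 and 7.64 in IC at 1 week. It was 6.52 and 6.53 in pigs 18 and 20 and 7.60 in pig 22 at 4 weeks, and 5.73, 6.20 and 6.74 in pigs 2, 3 and 5 at 6 weeks. Pig 22 and pig 5, with the highest marker mean of their stage, also had the highest ITGB2. Within RM this order did not hold, since pig 7 had the highest marker mean (5.28) and the lowest ITGB2 (2.52) of 1 week. In RM at 4 and 6 weeks the highest marker means were those of pigs 20 and 2, and the highest ITGB2 that of pigs 18 and 3. The order also failed in IC at 1 week, with pig 8 highest in markers and pig 9 in ITGB2. In CM both were highest in pig 30. Of the defining leukocyte markers, PTPRC was below the filter, with group means of 1.23 to 1.84. CD14 (1.84 to 2.61), PTPN6 (1.47 to 1.80) and RAC2 (2.09 to 4.23, highest in IC at 1 week) did not pass either. In IC at 6 weeks PTPRC and CD14 had means of 1.23 and 1.84, below the CM means of 1.40 and 2.17. ITGAM, an alpha partner of ITGB2, also did not pass, with group means of 0.85 to 1.06, so that this pairing could not be followed. The part of leukocyte number in the ITGB2 values was not tested.

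**Figure D2:**
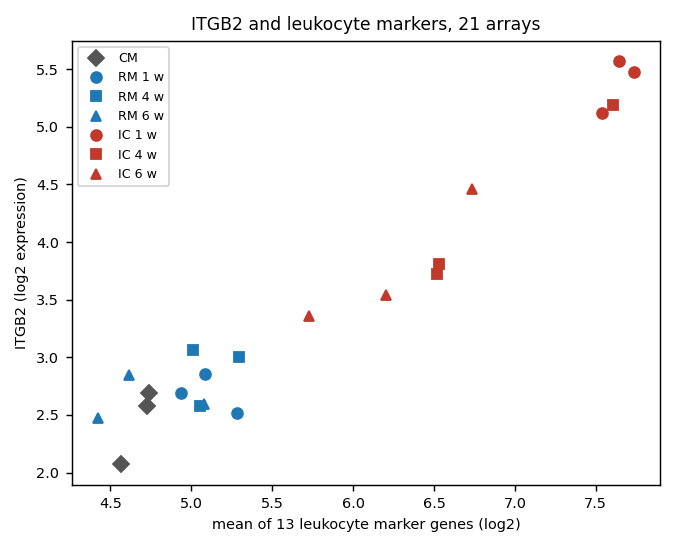
ITGB2 log2 expression (y axis) against the mean log2 expression of 13 leukocyte markers (x axis), 1 point for each of the 21 arrays, with color for the region and shape for the stage. The CM and RM arrays lie together at a marker mean of 4.43 to 5.30, and the IC arrays lie from 5.73 to 7.73 with ITGB2 from 3.36 to 5.57.

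ITGA5, the alpha subunit of the fibronectin receptor, was the member that fell in IC at every stage. Its CM arrays read 5.69, 5.14 and 4.80. RM gave 4.96, 4.85 and 5.21 at 1 week, 5.57, 5.44 and 5.31 at 4 weeks, and 5.64, 5.04 and 4.98 at 6 weeks. IC gave 4.66, 4.07 and 4.49 at 1 week, 4.23, 3.42 and 3.65 at 4 weeks, and 4.27, 3.96 and 3.32 at 6 weeks. All 9 IC arrays lay below all CM and RM arrays. Compared with CM the level fell by 0.80, 1.44 and 1.36 on the log2 scale (SE 0.27; limma adjusted p = 0.0181, 2.12e-04 and 5.73e-04). The call at 1 week was lost without pig 30 of CM (-0.56) or pig 8 of IC (-0.63). Within IC the means of 4 and 6 weeks (3.77 and 3.85) were below that of 1 week (4.41), with overlapping arrays and no call (adjusted p = 0.127 and 0.168).

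The second ITGA5 probe set was below 3 in all arrays and was not tested. It read 2.17 to 2.58 in CM, 1.61 to 2.55 in RM and 1.12 to 2.10 in IC, and IC was the lower sample in 8 of 9 pigs. Values this close to background do not give the size of a change.

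ITGAV, the alpha subunit of the vitronectin receptor, was called in IC at 4 weeks. Its CM arrays read 6.72, 6.30 and 6.54, and its RM arrays lay between 5.92 and 6.78. IC read 7.23, 6.97 and 6.23 at 1 week, 7.45, 7.97 and 6.62 at 4 weeks, and 7.47, 6.58 and 6.84 at 6 weeks. All neighbouring groups in the order of means overlapped, and pig 22 of the 4-week group lay within the CM range. The log2 FC against CM was 0.29, 0.82 and 0.44 (SE 0.31), with a limma adjusted p of 0.454, 0.0343 and 0.262. The 4-week call was lost without CM pig 31 (0.71) or 33 (0.83), without IC pig 18 (0.77) or 20 (0.51), with only the 2 groups compared (0.82), and when arrays were centred on their median (0.70).

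ITGA2B, the platelet alpha subunit, was not called in any comparison. CM read 3.60, 3.32 and 3.35, RM lay between 3.04 and 3.51, and IC between 2.92 and 3.70, and neighbouring groups in the order of means overlapped. The log2 FC in IC was -0.31, -0.27 and 0.05 (SE 0.16), with 95% intervals of -0.64 to 0.02, -0.60 to 0.07 and -0.28 to 0.38. With arrays centred on their median the values at 1 and 4 weeks were called (-0.40 and -0.39, limma adjusted p = 0.0326 and 0.0353). Of 16 platelet and megakaryocyte markers 3 were tested, ITGA2B itself among them. Below the filter, the platelet chemokine PPBP had group means of 0.61 to 0.93. SELP, also below the filter and not tested, had means of 2.26 in CM and 2.19 to 2.48 in RM. In IC the SELP means were 3.39, 3.66 and 2.98 at 1, 4 and 6 weeks. The beta partner ITGB3 had a mean of 2.98 ± 0.71 (SD, n = 3) in CM and of 4.02 ± 0.37, 4.28 ± 0.89 and 4.37 ± 0.96 in IC. Its log2 FC was 1.04, 1.30 and 1.39 (SE 0.45), called at 4 and 6 weeks (limma adjusted p = 0.0221 and 0.0178). The sizes are not exact because the CM mean was below 3. Too few CM and RM arrays of ITGB3 were above 3 for it to pass the filter without IC. These calls are therefore not independent of its high IC values.

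ILK, a pseudokinase that ties beta integrins to parvin and actin, was higher in RM than in CM and IC. The 3 CM arrays read 6.95, 6.99 and 7.11. RM arrays read 7.48, 7.69 and 7.82 at 1 week, 7.65, 7.42 and 7.41 at 4 weeks, and 7.33, 7.32 and 7.38 at 6 weeks. IC arrays read 6.99, 6.93 and 7.17 at 1 week, 6.88, 6.68 and 6.48 at 4 weeks, and 6.82, 6.90 and 6.61 at 6 weeks. Every RM array lay above every CM and IC array, and the IC arrays of 1 week overlapped with CM while those of 4 and 6 weeks lay below it. The difference of RM from CM at 1 week, 0.65, is given with no test, since ILK was found through the authors' list for that comparison. That list used the same 3 CM arrays as the other comparisons of ILK with CM, which are not independent of it. At 4 and 6 weeks the log2 FC of RM was 0.47 and 0.32 (SE 0.13; limma adjusted p = 0.0861 and 0.314), which was not called.

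In IC, ILK differed from CM by 0.01, -0.34 and -0.24 on the log2 scale (limma adjusted p = 0.937, 0.0384 and 0.137). The call at 4 weeks was not firm. It was lost when CM pig 30 (-0.37), 31 (-0.35) or 33 (-0.29) or IC pig 20 (-0.34) or 22 (-0.23) was left out, with only the 2 groups compared (-0.34), with array weights (-0.23) and with cyclic loess (-0.14).

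ZYX, a LIM-domain protein of focal adhesions and stress fibers, was highest in IC at 1 week. CM read 5.23, 4.84 and 4.74. RM read 5.87, 5.43 and 5.71 at 1 week, 5.61, 5.30 and 5.33 at 4 weeks, and 5.44, 5.41 and 5.30 at 6 weeks. IC read 6.35, 6.31 and 6.55 at 1 week, 5.67, 5.31 and 5.98 at 4 weeks, and 5.42, 5.68 and 5.46 at 6 weeks. All 18 arrays of infarcted hearts lay above the 3 CM arrays, the IC arrays of 1 week lay above all others, and the later IC groups overlapped with RM. At 1 week the differences from CM, 0.73 in RM and 1.47 in IC, are given with no test because the authors' lists for these 2 comparisons named the probe set. At 4 and 6 weeks IC was higher than CM by 0.72 and 0.58 (SE 0.17; limma adjusted p = 0.00187 and 0.0101), and without CM pig 33 the value at 6 weeks, 0.48, was not called. These comparisons use the CM arrays that entered both lists naming the probe set, and are not independent of that choice. RM differed from CM by 0.48 and 0.45, with no call (adjusted p = 0.171 and 0.28).

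Within IC, ZYX fell by 0.75 from 1 to 4 weeks and by 0.89 from 1 to 6 weeks on the log2 scale. These differences are given with no test, since the IC arrays of 1 week also entered the list that named the probe set. Without IC pig 9 of the 1-week group the first of these was -0.68.

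In RM at 1 week the 2 called of 7 tested were ILK and ZYX, both named through that list. At 4 and 6 weeks limma called 0 of 7, and 2 of 7 had an unadjusted p under 0.05, again ILK and ZYX, where 16.7% and 12.5% of all probe sets did. Among the RM stages 0 of 7 were called, beside 1.59% of all probe sets at 4 weeks against 1 week, 0.181% at 6 weeks against 1 week and 0.632% at 6 weeks against 4 weeks. At an unadjusted p under 0.05 limma gave 0, 1 and 0 of 7, beside 18.7%, 14.3% and 11.1% of all probe sets, the 1 being ILK, which fell by 0.32 from 1 to 6 weeks before adjustment (adjusted p = 0.275).

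**Figure D3:**
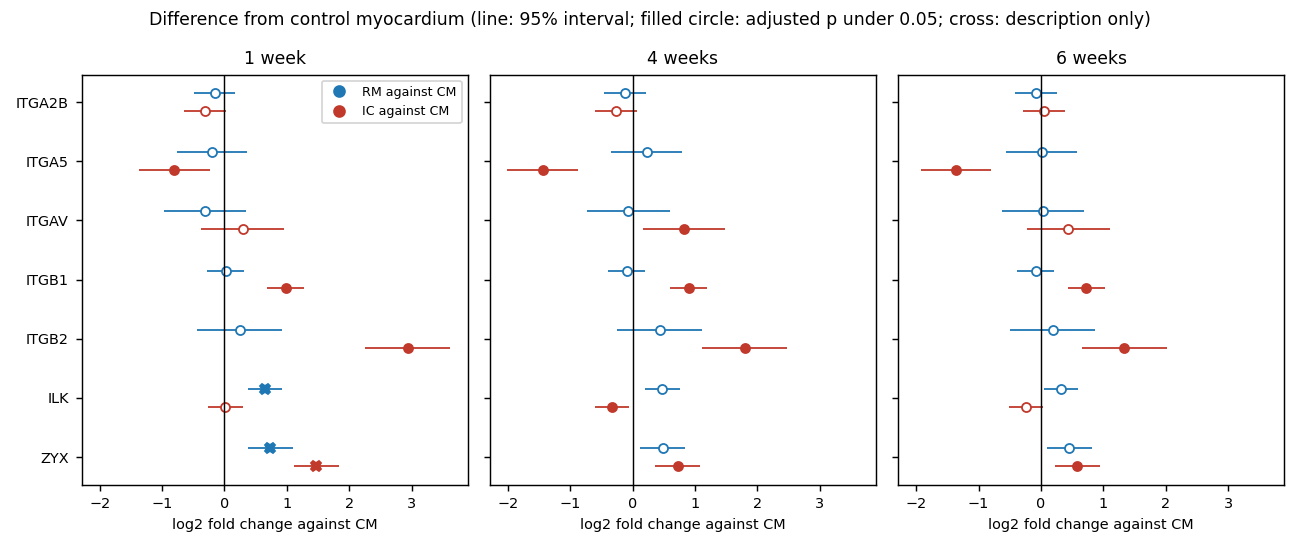
Log2 FC against CM (x axis) of the 7 tested probe sets (y axis) at 1, 4 and 6 weeks, in RM (blue) and IC (red), with 95% intervals as lines. Filled circles have an adjusted p under 0.05, open circles do not, and crosses are the 3 values given with no test. ITGB1 and ITGB2 lie to the right of 0 in IC with RM near 0, ITGA5 lies to the left in IC, and ILK lies on opposite sides in RM and IC at 4 and 6 weeks.

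IC and RM came from the same heart, and the pig was kept as a block in this comparison. At 1 week 3 of 7 probe sets were called higher in IC than in RM and 2 lower, beside 24.7% and 27.9% of all probe sets. At 4 weeks 3 were higher and 2 lower (25.5% and 29.3%), and at 6 weeks 2 were higher and 2 lower (22.6% and 25%). ITGB1, ITGB2 and ITGA5 were called at all 3 stages, and ILK at 4 and 6 weeks, with its 1-week value given below with no test. The counts at 1 week include ILK and ZYX, whose naming used arrays of that stage. These values do not use the CM arrays.

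ITGB1 was higher in IC in 9 of 9 pigs, by 0.55 to 1.26 on the log2 scale, with a log2 FC of 0.96, 0.99 and 0.81 (SE 0.15; limma adjusted p = 5.1e-04, 3.98e-04 and 0.00202). ITGB2 was also higher in 9 of 9 pigs, by 0.66 to 2.78, and its log2 FC was 2.70, 1.36 and 1.15 (SE 0.35; adjusted p = 1.39e-04, 0.00773 and 0.0212). Since it passed the filter only through IC, the fit with no filter is given too (adjusted p = 1.76e-04, 0.0107 and 0.0278), and with RM means below 3 the sizes are not exact. Without pig 22 the 4-week value of ITGB2 was 0.73, and without pig 5 the 6-week value was 0.73, neither of them called. Both pigs had the highest leukocyte marker mean of their stage in IC.

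ITGA5 was lower in IC in 9 of 9 pigs, by 0.30 to 2.02, with a log2 FC of -0.60, -1.67 and -1.37 (SE 0.17; limma adjusted p = 0.0129, 2.96e-05 and 1.85e-04). At 1 week its call was lost without pig 8 (-0.51), without pig 9 (-0.54) and without the pairing (adjusted p = 0.0724). ILK was lower in IC in 9 of 9 pigs as well, by 0.42 to 0.93, and its log2 FC was -0.63, -0.81 and -0.57 (SE 0.12). At 4 and 6 weeks ILK was called (limma adjusted p = 3.64e-04 and 0.00418), and leaving out any 1 pig kept these calls. The 1-week value is given with no test, since it uses the RM arrays whose comparison with CM named ILK. Those of 4 and 6 weeks do not use these arrays.

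ITGAV was higher in IC in 8 of 9 pigs, with the exception at -0.16, and the log2 FC of 0.61, 0.89 and 0.41 (SE 0.31) was called at 4 weeks (limma adjusted p = 0.0302), a call lost without pig 18 (0.66) or pig 20 (0.60). ZYX was higher in 8 of 9 pigs. Its difference at 1 week, 0.74, is given with no test because both groups entered the lists that named it, and at 4 and 6 weeks the log2 FC was 0.24 and 0.13 (limma adjusted p = 0.22 and 0.506). For ITGA2B, 5 pigs had the higher value in IC and 4 in RM.

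Whether the difference between IC and RM itself changed with time was tested as an interaction. Limma called 0 of 7 in each of the 3 pairs of stages, beside 0.0657%, 0.32% and 0% of all probe sets, and an unadjusted p under 0.05 was reached by 3, 3 and 0, beside 11.1%, 14.6% and 6.58% of all probe sets. The 3 were ITGA5, ITGB2 and ZYX, at 4 weeks and at 6 weeks relative to 1 week. For ITGA5 the change of the difference was -1.07 at 4 weeks and -0.77 at 6 weeks (limma adjusted p = 0.145 and 0.191). For ITGB2 it was -1.34 and -1.55 (limma adjusted p = 0.352 and 0.197). For ZYX it was -0.50 and -0.61, given with no test because the lists that named it used the 1-week arrays. The changes of ITGA5, ITGB2 and ZYX within IC over time are therefore not shown to differ from those in RM by this test. In RM the log2 FC of ITGA5 against 1 week was 0.43 at 4 weeks and 0.21 at 6 weeks. It was 0.19 and -0.05 for ITGB2 and -0.25 and -0.28 for ZYX, with no call.

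**Figure D4:**
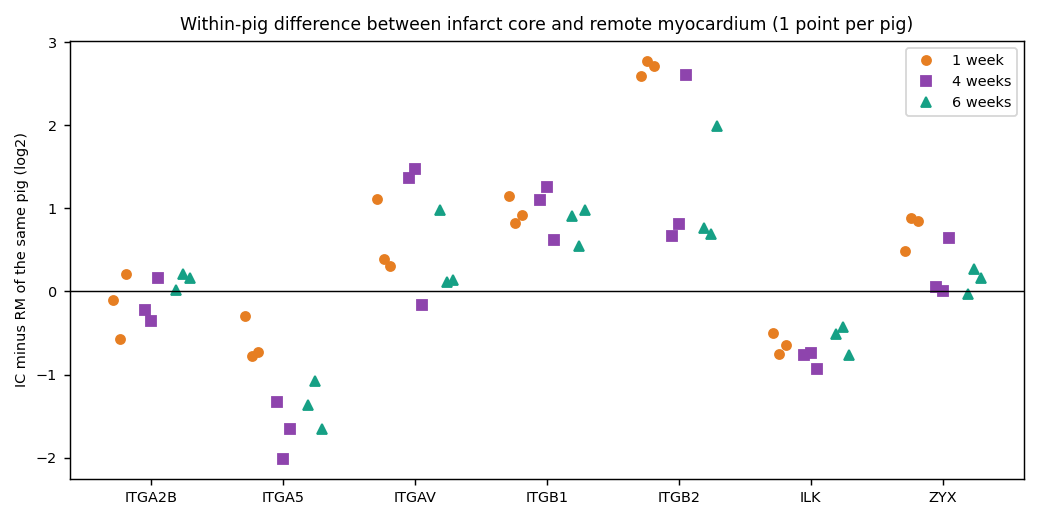
Difference in log2 expression between IC and RM of the same pig (y axis) for the 7 tested probe sets (x axis), 1 point per pig, with color and shape for the stage. All 9 pigs lie above 0 for ITGB1 and ITGB2 and below 0 for ITGA5 and ILK, and 1 pig each of 4 and 6 weeks stands apart from its stage in ITGB2.

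The proteins with which these members work were read from 4 lists by their platform names. Of 26 integrin subunits, 7 genes were tested, 5 of them the members above and the others ITGB3 and ITGB5. ITGB5, a beta partner of ITGAV, had a log2 FC of -0.05, 0.52 and 0.33 in IC and was called at 4 weeks (SE 0.21; limma adjusted p = 0.0405). In RM at 4 weeks it was 0.40, with no call. Against RM of the same pigs ITGB5 in IC had -0.25, 0.12 and 0.30 and was not called at any stage. The alpha subunit ITGA8 did not pass the filter, with means of 1.97 ± 0.24 in CM and 3.08 ± 0.57, 4.12 ± 0.34 and 3.34 ± 0.85 in IC (SD, n = 3). ITGA2, ITGA6 and ITGB7 had group means between 0.58 and 1.45 and were not above background in any group.

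Of 36 genes of the focal adhesion core 16 were tested, and 6, 7 and 3 were higher and 2, 2 and 1 lower than CM in IC at 1, 4 and 6 weeks (median log2 FC 0.24, 0.25 and 0.19). Of all tested probe sets 26%, 25.3% and 21% were higher and 28.2%, 29.1% and 26% lower, with medians of -0.06, -0.06 and -0.08. PARVA, the parvin that binds ILK, rose by 0.72, 0.99 and 0.94 (SE 0.12; limma adjusted p = 8.08e-05, 2.83e-06 and 1.09e-05), while ILK itself had 0.01, -0.34 and -0.24. LIMS1, a PINCH protein that binds the other end of ILK, had 0.21, -0.24 and -0.26 and was not called. LIMS2, the other PINCH protein, had -0.29, 0.58 and 0.34 in IC, called at 4 weeks (SE 0.17; adjusted p = 0.00654), and 0.64, 0.50 and 0.61 in RM with no call (adjusted p = 0.0727, 0.136 and 0.135). Against RM of the same pigs LIMS2 fell by 0.93 at 1 week (adjusted p = 1.72e-04), and was not called at 4 or 6 weeks (0.08 and -0.28). TLN1, the talin that activates integrins, was called at 1 and 4 weeks (0.69 and 0.57) and not at 6 weeks (0.30). Against RM of the same pigs TLN1 was called at 1 and 6 weeks (0.54 and 0.46) and not at 4 weeks (0.19). VCL, vinculin, had 0.28, 0.37 and 0.40 with no call (adjusted p = 0.166, 0.0704 and 0.0535). The kinase FYN was called at all stages (1.02, 1.22 and 0.80), as was the tensin TNS3 (0.99, 1.54 and 1.26). Melusin (ITGB1BP2), a muscle protein that binds the ITGB1 tail, had -0.28, -1.23 and -0.19 and was not called against CM. Against RM of the same pigs melusin had -0.79, -1.35 and -0.77 and was called at 4 weeks (limma adjusted p = 0.024). Its IC arrays of 4 weeks spread widely (6.72 ± 1.63, SD, n = 3).

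Of 38 genes of the zyxin family and the actin link 22 were tested, with 14, 12 and 11 higher and 2, 4 and 2 lower in IC (median 0.71, 0.64 and 0.36), beside the same shares of all probe sets, 26%, 25.3% and 21% higher and 28.2%, 29.1% and 26% lower. ACTN1, the alpha-actinin that binds zyxin, rose by 2.97, 2.01 and 1.52 (SE 0.26; limma adjusted p = 6.27e-08, 4.23e-06 and 1.44e-04). TES, another LIM protein of focal adhesions, rose by 2.25, 2.10 and 1.25, and the non-muscle myosin MYH9 by 1.98, 1.91 and 1.43. ACTB, beta-actin, rose by 2.28, 1.03 and 1.35 in its brightest probe set, but another ACTB probe set had a log2 FC of -0.46, 1.23 and 0.03, so that the probe sets disagreed at 1 and 6 weeks. In ACTN1, TES and MYH9, as in ZYX, the 1-week value was the highest of the 3. For TES (SE 0.31) and MYH9 (SE 0.18) the 1-week and 4-week values were close, and no test between stages is given for these genes. The smooth muscle and myofibroblast marker mean was 6.65 to 7.06 in CM and 8.31 to 8.79 in IC.

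Integrin ligands gave the largest changes among the lists. Of 47 genes 27 were tested, with 18, 16 and 16 higher and 2, 1 and 2 lower in IC (median 1.22, 1.22 and 1.03), again beside 26%, 25.3% and 21% of all probe sets higher and 28.2%, 29.1% and 26% lower. FN1, fibronectin, the ligand of the pair of ITGA5 and ITGB1, had a mean of 6.93 ± 0.51 in CM and of 11.57 ± 0.14, 11.54 ± 0.17 and 11.06 ± 0.15 in IC (SD, n = 3). Its log2 FC was 4.64, 4.62 and 4.13 (SE 0.24; limma adjusted p = 3.84e-10, 3.95e-10 and 1.87e-09), at the same stages at which ITGA5 fell. SPP1, osteopontin, a ligand of ITGAV integrins, had 6.09, 5.93 and 4.94 from a CM mean of 2.62 close to background. Too few CM and RM arrays of SPP1 were above the filter level for it to pass without IC. VTN, vitronectin, went the other way and fell by 1.61, 1.61 and 1.49 (SE 0.26; adjusted p = 5.43e-05, 5.27e-05 and 2.00e-04). In RM, 0 genes of the first 3 lists were called at any stage and 1 ligand, THBS2, at 4 weeks. Of all probe sets 1.13%, 1.08% and 0.197% were called in RM at 1, 4 and 6 weeks, so nothing particular to the lists is read from this.

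**Figure D5:**
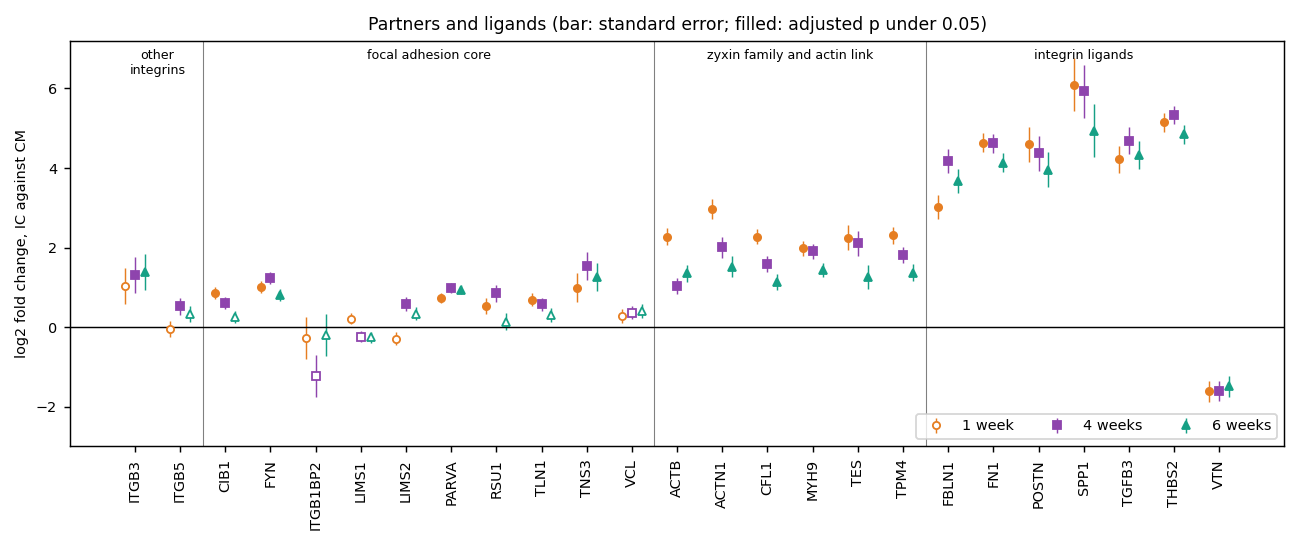
Log2 FC of IC against CM (y axis) for named integrins, partners and ligands (x axis, grouped by list) at 1, 4 and 6 weeks, with bars for the standard error. Filled symbols have an adjusted p under 0.05. The genes shown are direct partners and up to 6 genes per list picked for the largest change in IC, so their ranges follow from that choice. Ligands other than VTN lie between 3.01 and 6.09, the core partners lie within -1.23 and 1.54, and the actin-linked genes lie between 1.03 and 2.97. Over all tested genes the medians were 1.22, 1.22 and 1.03 for ligands and 0.71, 0.64 and 0.36 for the actin link.

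The genes whose profile over the 21 arrays was most like that of each member are given as a description, since the arrays share the contrast between IC and the other groups. For ITGB2 they were IRF8, LCP2 and ARHGAP30 (r = 0.98 for each, n = 21 arrays), genes known from leukocytes. For ITGB1 they were RAI14, KDELR3 and C1QTNF3 (r = 0.97). For ITGA5 they were MYBBP1A, LSM7 and GPAT4 (r = 0.94, 0.93 and 0.93), and for ILK they were SERHL2, MEA1 and GNB1L (r = 0.94, 0.92 and 0.91). ZYX was closest to PKDCC, AP2S1 and ATP6V0C (r = 0.92, 0.90 and 0.89). ITGAV and ITGA2B had looser neighbours, with HNRNPA2B1 at 0.87 and SHMT1 at 0.72 as the first of each.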

How the data were processed

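Each of 21 RNA samples was read on 1 Affymetrix porcine array. The authors made the deposited log2 values by RMA, which corrects background, normalizes quantiles across arrays and summarizes probes to probe sets, so a shift of all transcripts in a sample is removed. The values were used as deposited. The genome build is not given in the sources used here, and no coordinates or sequences are printed.

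A linear model of 7 group means was fitted in limma 3.58.1 (R 4.3.3) to the 12180 probe sets above 3 in at least 10 arrays. IC and RM were compared in a second fit of 18 arrays with the pig as a block, since the labels give both samples of an animal 1 number (after removal of group means, r between IC and RM of an animal was 0.0714 to 0.491, and 9 of 9 pigs were closest to their own). The members and lists were chosen with earlier results of these data known. Named genes are the members, their direct partners, up to 6 genes per list with the largest change in IC, and 3 genes per member by correlation. A gene with several probe sets is read from the brightest. The authors' matches, held for 2428 probe sets from tables that are held only in part, could miss further probe sets of a member. The fits were tested on simulated data. Alternatives were other filters, median centring, cyclic loess, a mean-variance trend, array weights, fits of only the groups compared, the pig block, and leaving out each pig. With 3 pigs per group the number of arrays limits the precision.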

Additional observations from a re-analysis of the deposited data

Results flagged for a closer look

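Differences between stages or regions with an adjusted p under 0.05 are gathered here as values. Those of ZYX and ILK that use the 1-week arrays are not independent of the lists that named these probe sets, and ITGB2 passed the filter only through IC. Within IC, ITGB2 differed from its 1-week level by -1.15 at 4 weeks and -1.60 at 6 weeks, and ZYX by -0.75 and -0.89 (log2). Between IC and RM of the same pigs, the difference at 1 week was 2.70 for ITGB2, -0.60 for ITGA5, 0.74 for ZYX, -0.63 for ILK and 0.96 for ITGB1. At 4 weeks it was 1.36 for ITGB2, 0.89 for ITGAV, -1.67 for ITGA5, -0.81 for ILK and 0.99 for ITGB1. At 6 weeks it was 1.15 for ITGB2, -1.37 for ITGA5, -0.57 for ILK and 0.81 for ITGB1.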

How the results depend on the processing

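Of 237 counts of called members under the alternatives, 220 stayed within 1.5 times the reported count and 17 did not. RM against CM at 1 week, with 2 members reported, gave 1 with no filter, 1 with cyclic loess, 0 with only the 2 groups fitted and 0 to 1 with 1 pig left out. RM at 4 weeks gave 2 in place of 0 with array weights, which called 1628 probe sets in all where 132 were reported. IC at 4 weeks against 1 week gave 4 in place of 2 with array weights (3509 probe sets in all in place of 1452), 0 with only the 2 groups fitted and 0 to 2 with 1 pig left out. The interaction of 6 weeks against 1 week gave 1 in place of 0 with array weights, which was ITGB2. Of the member FCs, 0 turned their direction among called values, 44 lost a call and 8 gained one. Without the replicate block, IC against RM gave 4, 5 and 4 members in place of 5, 5 and 4, and with the pig as a random block the comparisons with CM gave 4, 6 and 4 for IC, and 2, 0 and 0 for RM, as reported. Of the counts of called genes in the lists, 1173 stayed within that range and 87 did not.

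Centring arrays on their median moved the median of all probe sets in IC at 4 weeks by -0.12, and the share of calls that were higher was then 37.5% in place of 46.4%. The same centring gave 38.8% in place of 56.8% in RM at 4 weeks. Probe sets near 3 (ITGA2B, and ITGB2 and ITGB3 outside IC) are limited by background, and the cause of these shifts was not tested.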
